A study of Mus musculus with 8 samples.

Results

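*Bgn*, *Dcn*, *Lum*, *Fmod*, *Aspn*, *Omd*, *Ogn* and *Prelp* encode small leucine-rich proteoglycans. These 8 genes of the 24091 in the deposited count table are described in islets of mice with *Itgb1* deleted in endocrine progenitors. The 8 were taken by gene symbol, and the family was selected on an earlier result from the same libraries, the higher level of *Bgn* in mutant than in control islets. Differences between mutant and control islets in these 8 genes are therefore given as a description, with no test. Tests are given for the order of the levels and the larger against the smaller libraries, which did not enter the choice. Tests are also given for the genes that work with the family. These use the same contrast of mutant and control islets that chose the family, and are no independent support for it.

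Islets were isolated by collagenase perfusion from the pancreas of C57BL/6 mice at 6 weeks of age. The mutant group was *Ngn3-Cre*, itgb1-/- (4 libraries) and the control group was wild-type (4 libraries). *Ngn3-Cre* recombines in endocrine progenitors, so the fibroblasts, vessels, nerves and ducts that come along with isolated islets keep *Itgb1*, the integrin β1 chain through which cells hold on to matrix. RNA was sequenced after depletion of ribosomal RNA and counted per gene.

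Small leucine-rich proteoglycans are secreted proteins built of leucine-rich repeats, most of which carry chains of chondroitin, dermatan or keratan sulfate. They sit on collagen fibrils, set their width and spacing, and hold growth factors such as TGF-β in the matrix. Biglycan and decorin are also known as soluble signals, biglycan through Toll-like receptors of the innate immune system and decorin through receptor tyrosine kinases. In connective tissue they are made mainly by fibroblasts and related stromal cells, and in the pancreas stellate cells and pericytes belong to these.

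The genes lie in 3 clusters and 1 lone locus of the mouse genome (GRCm38). *Bgn* stands alone at chrX:73483601-73495936. *Dcn* (chr10:97479500-97518163) and *Lum* (chr10:97565501-97572703) are neighbours 47.3 kb apart. *Fmod* (chr1:134037515-134048277) and *Prelp* (chr1:133910304-133921401) are separated by 116 kb. *Aspn* (chr13:49544443-49567562), *Omd* (chr13:49582747-49592609) and *Ogn* (chr13:49608071-49624500) follow each other with gaps of 15.2 and 15.5 kb. All are on the plus strand but *Prelp*. The chromosome 13 cluster lies inside the span of *Cenpp*, a centromere protein gene on the opposite strand with 12 to 37 counts per library, whose exons do not overlap those of the cluster. An exon of the transcript *Gm15851* overlaps *Prelp*, so a share of reads there could belong to either gene.

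The promoter sequences of *Bgn*, *Prelp* and *Aspn* are shown because these 3 genes had unlike levels across the libraries, as described further on, and because their RefSeq start is also the start given in the annotation used here. Each runs 5′ to 3′ on the strand of the gene from 250 bases before the start to 50 after it (RefSeq, GRCm38.p6). Capitals mark matches, on either strand, to 4 motifs. The TATA box was searched as the letters TATAAA and the GC box as the letters GGGCGG. The hypoxia response core was searched as ACGTG and the SMAD core as CAGAC.
Bgn promoter, chrX:73483351-73483650, plus strand: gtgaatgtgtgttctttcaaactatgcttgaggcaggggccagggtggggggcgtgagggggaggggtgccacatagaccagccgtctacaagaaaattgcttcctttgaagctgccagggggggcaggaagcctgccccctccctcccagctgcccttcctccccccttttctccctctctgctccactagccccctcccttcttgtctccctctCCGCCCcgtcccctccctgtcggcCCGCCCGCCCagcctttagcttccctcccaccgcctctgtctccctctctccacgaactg
Prelp promoter, chr1:133921352-133921651, minus strand: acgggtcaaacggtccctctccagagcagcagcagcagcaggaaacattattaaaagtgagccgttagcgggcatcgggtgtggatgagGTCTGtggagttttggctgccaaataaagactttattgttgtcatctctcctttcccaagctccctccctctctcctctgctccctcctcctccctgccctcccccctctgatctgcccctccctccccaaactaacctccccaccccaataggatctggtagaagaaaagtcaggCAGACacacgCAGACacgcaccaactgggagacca
Aspn promoter, chr13:49544193-49544492, plus strand: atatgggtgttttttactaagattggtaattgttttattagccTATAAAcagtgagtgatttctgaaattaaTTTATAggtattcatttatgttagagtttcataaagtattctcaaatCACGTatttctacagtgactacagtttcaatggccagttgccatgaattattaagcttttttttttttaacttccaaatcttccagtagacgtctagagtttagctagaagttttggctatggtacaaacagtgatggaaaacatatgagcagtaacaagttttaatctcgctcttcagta

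The *Bgn* promoter had 63.7% G and C and held 3 GC boxes, 2 of which overlap within a longer run. The *Prelp* promoter had 55.3% G and C and held 3 SMAD cores, and the AT-rich *Aspn* promoter, with 31.0% G and C, held 2 TATA boxes and 1 hypoxia response core. The median promoter of the 32851 in the RefSeq table had 52.7% G and C. A TATA box was found in 13.6% of them, a GC box in 35.7%, a hypoxia response core in 19.6% and a SMAD core in 49.6%, so none of these letters is rare. A match describes the sequence and was not tested as a binding site. Promoters of 6 of the 8 genes were matched, and those of *Dcn* and *Lum* were not used here.

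Levels are CPM, the counts of a gene per 1 M (mega) counts of its library, scaled by TMM, a normalisation that sets the bulk of genes equal between libraries. Total counts were 39.6 to 63.9 M in the mutant and 35.1 to 67.6 M in the control libraries. Mutant 3 and controls 2 and 3 held over 50 M and are called the larger libraries, and the other 5 the smaller ones. Mutant 3 and control 3 came from females by *Xist* and *Ddx3y*, which leaves 3 males in each group. *Itgb1* itself had 266, 225, 193 and 255 CPM in mutants 1 to 4, against 422, 432, 408 and 315 CPM in controls 1 to 4, lower in every mutant library with a log2 fold change of -0.75 (SE 0.15, adjusted p = 0.256, edgeR quasi-likelihood test). All 12 islet endocrine markers were measured, with summed levels of 53022 to 81010 CPM in mutants and 64823 to 298506 CPM in controls. The summed level of 12 acinar markers was 75.6 to 687 CPM in the mutants, against 15.3, 3206, 9924 and 268 CPM in controls 1 to 4, so that controls 2 and 3 stood apart. The acinar marker *Amy2a5* was at 0 in every library. The series entry calls the libraries biological replicates, but a supplement to the study lists fewer animals per genotype for islet RNA-seq at this age than there are libraries, so some libraries may share an animal. Here n is a number of libraries, and SDs, SEs and p-values measure the spread between libraries, which may be technical in part.

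*Bgn*, which encodes the biglycan core protein, was higher in every mutant than in every control library. It had 97.5, 115, 135 and 141 CPM in mutants 1 to 4, against 48.7, 44.1, 54.5 and 42.5 CPM in controls 1 to 4. The lowest mutant library was mutant 1 and the highest control library control 3, and the groups did not overlap. The mean was 122 ± 20.02 CPM in mutants and 47.4 ± 5.40 CPM in controls (n = 4 each, SD). The log2 fold change was 1.37 (SE 0.15). Of the 7 family genes that passed the low count filter, *Bgn* and *Lum*, thus 2, had every mutant library above every control library, and 4.40% of the 15233 genes tested did so, with 3.80% having every mutant library below. These shares stand beside the count for reference only, since the genotype difference entered the choice of the family. In bulk RNA, more stromal cells in an islet preparation and more RNA per stromal cell cannot be told apart.

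**Figure D1:**
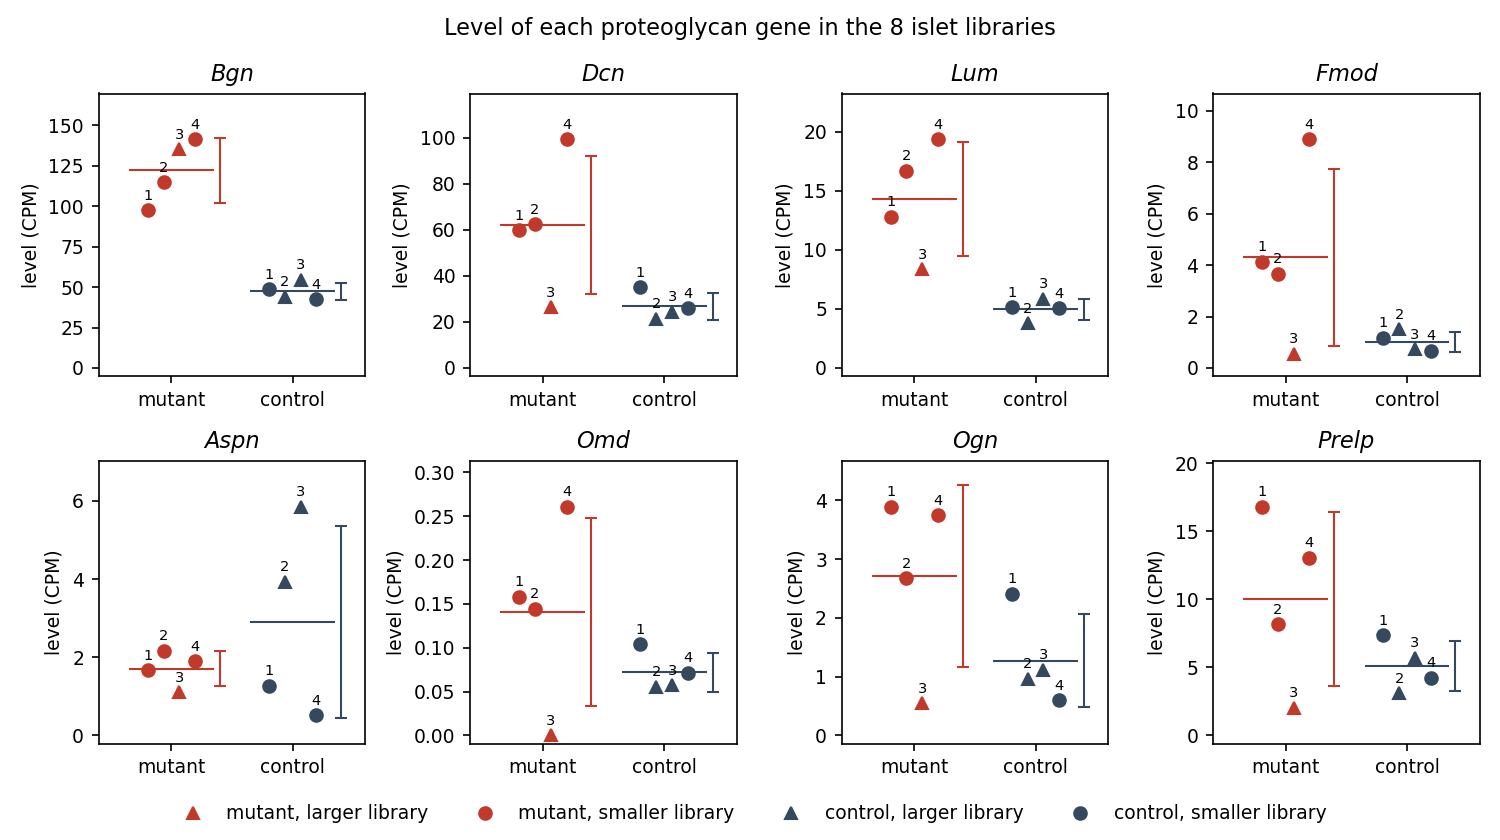
Level of each proteoglycan gene in CPM (vertical axes, each with its own scale) in the 4 mutant and 4 control libraries, numbered by replicate, with triangles for the larger and circles for the smaller libraries, lines for group means and bars for 1 SD either side. The mutant points of *Bgn* lie between 97.5 and 141 CPM, above all control points, while mutant 3 is the lowest mutant point in each of the other 7 genes.

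*Dcn* encodes decorin, the closest relative of biglycan, which wraps collagen I fibrils and binds TGF-β. It had 59.8, 62.5, 26.3 and 99.4 CPM in mutants 1 to 4, against 35.1, 21.5, 24.4 and 26.0 CPM in controls 1 to 4. Mutants 1, 2 and 4 were above all controls, and mutant 3 lay among them. The means were 62.0 ± 29.9 CPM in mutants and 26.7 ± 5.86 CPM in controls (n = 4 each, SD). The log2 fold change was 1.21 (SE 0.35). *Aspn* encodes asporin, a decorin-like protein without the usual sugar chain attachment that binds collagen and TGF-β. It had 1.67, 2.17, 1.11 and 1.90 CPM in mutants 1 to 4, against 1.27, 3.93, 5.85 and 0.525 CPM in controls 1 to 4. The controls enclosed the mutants, with controls 2 and 3 at the top and control 4 at the bottom. *Aspn* was the one family gene with a lower mean in mutants, 1.71 ± 0.450 CPM in mutants and 2.90 ± 2.45 CPM in controls (SD, n = 4 each), and its log2 fold change was -0.76 (SE 0.66). Within the smaller libraries alone the log2 fold change was 1.09, and with a term for library set it was 0.077 (SE 0.74).

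*Lum*, *Fmod*, *Prelp* and *Omd* belong to the branch of the family that often carries keratan sulfate, in which lumican and fibromodulin share binding sites on collagen and act on fibril growth. *Lum* had 12.8, 16.7, 8.38 and 19.4 CPM in mutants 1 to 4, against 5.16, 3.77, 5.85 and 5.05 CPM in controls 1 to 4. All mutants were above all controls, with mutant 3 nearest to them, and the log2 fold change was 1.53 (SE 0.28). *Fmod* had 4.14, 3.66, 0.561 and 8.89 CPM in mutants 1 to 4, against 1.17, 1.503, 0.722 and 0.668 CPM in controls 1 to 4. Its mutant libraries were both the highest and the lowest of the 8, mutant 4 and mutant 3, and the log2 fold change of 2.08 carried the family's widest error (SE 0.70). *Prelp* encodes a protein that anchors basement membranes to the connective tissue underneath by binding collagen and heparan sulfate chains. It had 16.8, 8.16, 2.02 and 13.1 CPM in mutants 1 to 4, against 7.34, 3.10, 5.70 and 4.24 CPM in controls 1 to 4. Again mutants 1, 2 and 4 were above all controls and mutant 3 was below all of them, and the log2 fold change of 0.97 had an SE of 0.56.

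*Omd* encodes osteomodulin, known from bone and tooth matrix, and was near the limit of detection in islets. It had 7, 6, 0 and 11 counts in mutants 1 to 4, against 4, 3, 3 and 3 counts in controls 1 to 4. It did not pass the low count filter and was not fitted. The count of 0 in mutant 3 allows a level of up to 0.0443 CPM (3 counts, counting error only). Controls 2 and 3 were at 0.0557 and 0.0570 CPM, but these values rest on 3 counts each and carry counting error of their own. Mutant 3 can thus not be set apart from them for *Omd*. *Ogn* encodes osteoglycin, also called mimecan, of the smaller branch whose members have fewer repeats. It had 3.89, 2.67, 0.547 and 3.75 CPM in mutants 1 to 4, against 2.41, 0.965, 1.12 and 0.596 CPM in controls 1 to 4. Mutants 1, 2 and 4 were above all controls and mutant 3 below all of them, with a log2 fold change of 1.09 (SE 0.63). Over the 7 genes fitted, 6 had a higher and 1 a lower mean in mutants, and the median log2 fold change was 1.21, beside 0.0015 over all genes tested. Of all genes tested, 50.2% had a positive log2 fold change.

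Biglycan and decorin messages dominated the family. The 8 genes together gave 197, 211, 174 and 288 CPM in mutants 1 to 4, against 101.2, 78.8, 98.2 and 79.6 CPM in controls 1 to 4. *Bgn* alone took 49.6, 54.5, 77.7 and 49.1% of that sum in mutants 1 to 4, against 48.1, 55.9, 55.5 and 53.4% in controls 1 to 4. Only mutant 3 stood outside a narrow range. The ratio of *Bgn* to *Dcn* per kilobase of gene length, as deposited with the counts, showed the same library. It was 0.992, 1.12, 3.13 and 0.866 in mutants 1 to 4, against 0.845, 1.25, 1.36 and 0.996 in controls 1 to 4.

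Per kilobase of the deposited gene length, and as means over the 8 libraries, the order of the levels was *Bgn* (24.6 CPM per kb), *Dcn* (21.2), *Lum* (4.65), *Prelp* (2.10), *Aspn* (0.983), *Fmod* (0.933), *Ogn* (0.784) and *Omd* (0.0609). The 7 neighbouring pairs in this order were compared within libraries by an exact two-sided sign-flip permutation test of the log2 ratio, with Benjamini-Hochberg adjustment over the 7. *Dcn* exceeded *Lum*, *Lum* exceeded *Prelp* and *Ogn* exceeded *Omd* in 8 of 8 libraries, each with an adjusted exact p of 0.0182, where the raw p of 0.00781 is the smallest that 8 libraries can give. *Bgn* and *Dcn* did not differ beyond their spread, with *Bgn* higher in 4 of 8 libraries, a mean log2 ratio of 0.26 ± 0.61 (SD) and an adjusted exact p of 0.394. *Prelp* exceeded *Aspn* in 6 of 8 libraries (adjusted exact p = 0.123), and *Aspn* against *Fmod* and *Fmod* against *Ogn* had adjusted exact p-values of 0.638 and 0.867. With gene length the order thus had 4 steps, *Bgn* with *Dcn*, then *Lum*, then *Prelp*, *Aspn*, *Fmod* and *Ogn* with no gap between neighbours that passed, and *Omd*. With coding length in place of gene length *Bgn* exceeded *Dcn* in 8 of 8 libraries (adjusted exact p = 0.0137), and *Fmod*, *Ogn* and *Aspn* took ranks 5, 6 and 7. The gene length was 3.444 kb for *Bgn* and 2.095 kb for *Dcn*, and the coding length 1.107 and 1.062 kb. The steps moved too: *Lum* exceeded *Prelp* in 6 of 8 libraries and no longer passed (adjusted exact p = 0.0984), and *Prelp* exceeded *Fmod*, now its neighbour, in 8 of 8 (adjusted exact p = 0.0137).

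**Figure D2:**
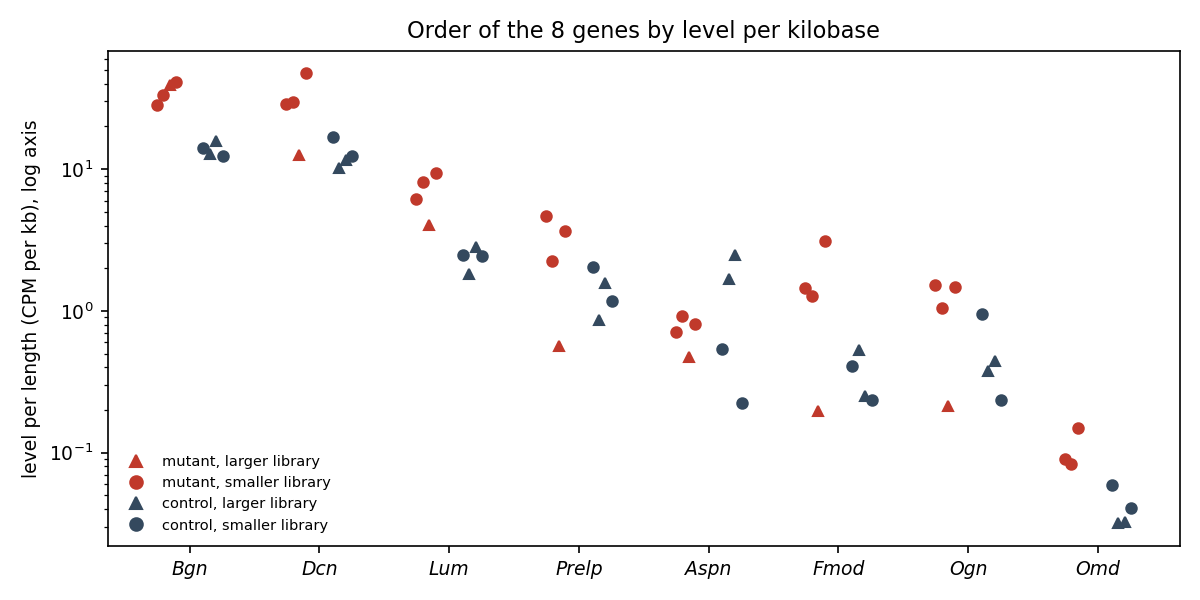
Level of the 8 genes in CPM per kilobase of gene length on a log axis, with genes ordered from left to right by their mean over the 8 libraries, mutant points left of control points, and triangles for the larger libraries. *Bgn* and *Dcn* share the top, *Lum* lies below them in every library, and *Omd* lies below 0.2, with mutant 3 at 0 and so off the axis.

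The larger and the smaller libraries were compared with genotype held in the model, since 3 of the 8 libraries were sequenced more deeply and the labels name no batch. The study corrected for batch effects but does not name the batches. None of the 7 genes fitted passed edgeR's quasi-likelihood test at an adjusted p below 0.05, where 8.73% of all genes tested were higher and 7.84% lower in the larger libraries. *Bgn* had the smallest difference, 77.9 CPM in the larger and 89.0 CPM in the smaller libraries, a log2 difference of 0.15 at equal genotype (SE 0.14, edgeR adjusted p = 0.490). *Dcn* had 24.1 CPM in the larger and 56.5 CPM in the smaller libraries, a log2 difference of -0.85 (SE 0.30, edgeR adjusted p = 0.0881), and it passed by DESeq2 (adjusted p = 0.0178). *Prelp* had 3.61 and 9.92 CPM in the larger and the smaller libraries, a log2 difference of -1.23 (SE 0.58, adjusted p = 0.180 by edgeR and 0.0484 by DESeq2). DESeq2 called 13.2% of all genes tested lower in the larger libraries and 4225 genes in either direction, and nothing is read from its calls of 2 of 7 genes. *Lum*, *Fmod* and *Ogn* had log2 differences of -0.45, -0.96 and -1.32 (edgeR adjusted p = 0.278, 0.490 and 0.191). *Aspn* ran the other way, with 3.63 CPM in the larger and 1.51 CPM in the smaller libraries, a log2 difference of 1.31 (SE 0.77, edgeR adjusted p = 0.267). Without mutant 3 that difference was 2.45 and passed, where 16.8% of all genes tested passed as higher in the larger libraries. In the same fit the log2 difference was -0.41 for *Dcn*, -0.39 for *Prelp*, -0.086 for *Lum*, -0.52 for *Ogn* and 0.11 for *Bgn*. For *Fmod* it turned to 0.28. The lower levels of these genes in the larger libraries thus rested in large part on mutant 3.

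Within the smaller libraries, mutants 1, 2 and 4 were above controls 1 and 4 for all 8 genes, *Omd* included. The share of all genes with this pattern was not computed, and the genotype difference entered the choice of the family. The count is a description. The ratio of mean CPM, mutant over control, was 2.59 for *Bgn*, 2.42 for *Dcn*, 3.19 for *Lum*, 6.06 for *Fmod*, 2.13 for *Aspn*, 2.28 for *Ogn* and 2.19 for *Prelp*. In the larger libraries, mutant 3 over controls 2 and 3, it was 2.74 for *Bgn*, 1.15 for *Dcn* and 1.74 for *Lum*, with mutant 3 above both controls. It was 0.505 for *Fmod*, 0.226 for *Aspn*, 0.524 for *Ogn* and 0.460 for *Prelp*, with mutant 3 below both controls. The ratio of *Bgn* was thus of like size in both sets of libraries. Since the family was chosen for the level of *Bgn* in these same libraries, this likeness is a description and not support.

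The difference of the mutant effect between the sets was tested by an interaction term added after these values were seen, and it rests on 1 mutant library. On the log2 scale, larger minus smaller, it was 0.085 for *Bgn* (SE 0.29, edgeR adjusted p = 0.871), -1.08 for *Dcn* (adjusted p = 0.145) and -0.87 for *Lum* (adjusted p = 0.211). For *Aspn* it was -3.23 (SE 0.72, edgeR adjusted p = 0.0406), the 1 of 7 that passed, where 5.55% of all genes tested passed in that direction. For *Fmod*, *Prelp* and *Ogn* it was -3.58, -2.25 and -2.12 (edgeR adjusted p = 0.0633, 0.0962 and 0.191). Depth and tissue composition move with the sets of libraries, 2 of the 3 larger ones are from females, and the endocrine markers summed to 81010 CPM in mutant 3, against 185947 and 298506 CPM in controls 2 and 3. Their part in these ratios was not tested.

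**Figure D3:**
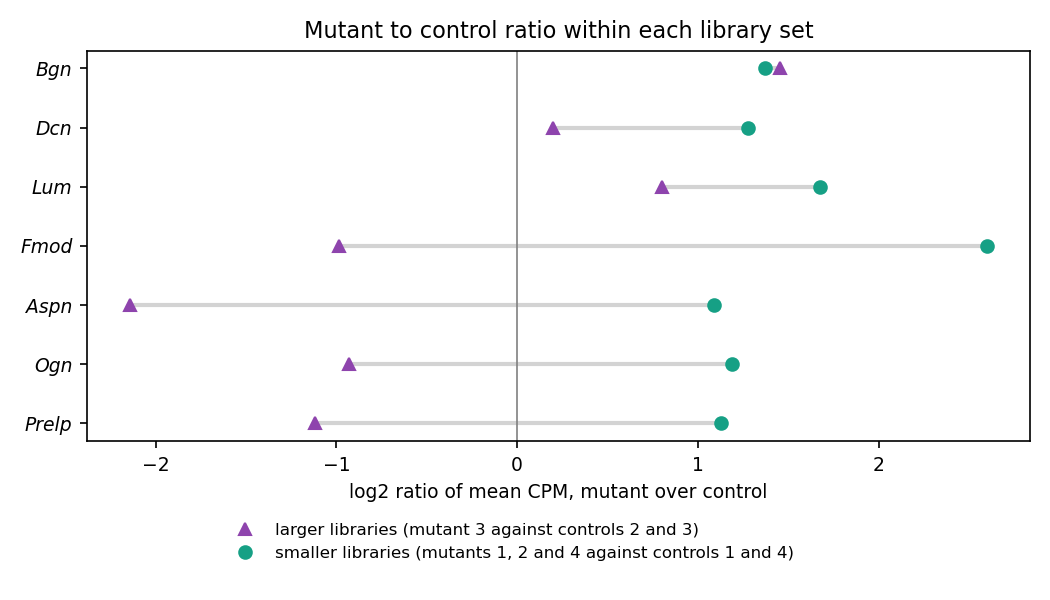
Log2 ratio of mean CPM, mutant over control, for the 7 fitted genes (rows), with triangles for the larger libraries (mutant 3 against controls 2 and 3) and circles for the smaller ones (mutants 1, 2 and 4 against controls 1 and 4). Both points lie near each other for *Bgn*, and for *Fmod*, *Aspn*, *Ogn* and *Prelp* they lie on opposite sides of 0.

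Likeness between profiles was measured as the root mean square difference of log2 CPM over the 8 libraries, after the mean of each gene was taken off. This is a description, in which all genes share the same 8 libraries. Of 15232 other genes, the 3 nearest to *Bgn* were the collagen VI chains *Col6a1* (0.098) and *Col6a2* (0.155) and the homeobox gene *Hoxb2* (0.196), beside a median of 0.773 over all genes. *Col6a1* and *Col6a2* encode chains of the same collagen, a microfibril protein that biglycan binds. Nearest to *Dcn* were *Pi16* (0.149), a marker of adventitial fibroblasts, the elastic fibre gene *Fbln5* (0.246) and the potassium channel subunit gene *Kcne4* (0.248). *Prelp* had as its nearest gene *Fbln1* (0.238), which encodes the basement membrane protein fibulin 1, followed by *Tbc1d10c* (0.293) and *Adamts15* (0.318). *Ogn* had *Prelp* as its second nearest gene (0.384), between *Htr1d* (0.356) and *Igfbp6* (0.386), though *Ogn* and *Prelp* lie on different chromosomes. Nearest to *Aspn* was *Ltbp4* (0.285), which encodes a latent TGF-β binding protein, then *Ppargc1a* (0.311) and *Shisa7* (0.370). *Lum* was followed most closely by *C1ql3* (0.197), *Pdlim2* (0.224) and *Hotairm1* (0.224), and *Fmod* by *Ms4a4d* (0.460), *Ism1* (0.467) and *Tslp* (0.477).

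Among the family genes themselves, the pairs differed widely. *Dcn* and *Lum*, neighbours on chromosome 10, had a distance of 0.327, and *Bgn* and *Lum* one of 0.379. *Bgn* and *Dcn* were farther apart (0.568), though their mean levels per kilobase were alike. Distances also grow with the spread of a gene, with an SD of log2 CPM of 0.75 for *Bgn* and 1.42 for *Fmod*. By rank among all genes, *Lum* was number 29 for *Dcn* and 42 for *Bgn*, and *Dcn* number 824 for *Bgn*. *Ogn* was also number 29 for *Fmod*, at a distance of 0.656. *Aspn* was far from each of the other 6, at 1.24 to 1.52, *Ogn* included, which lies in the same cluster on chromosome 13.

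**Figure D4:**
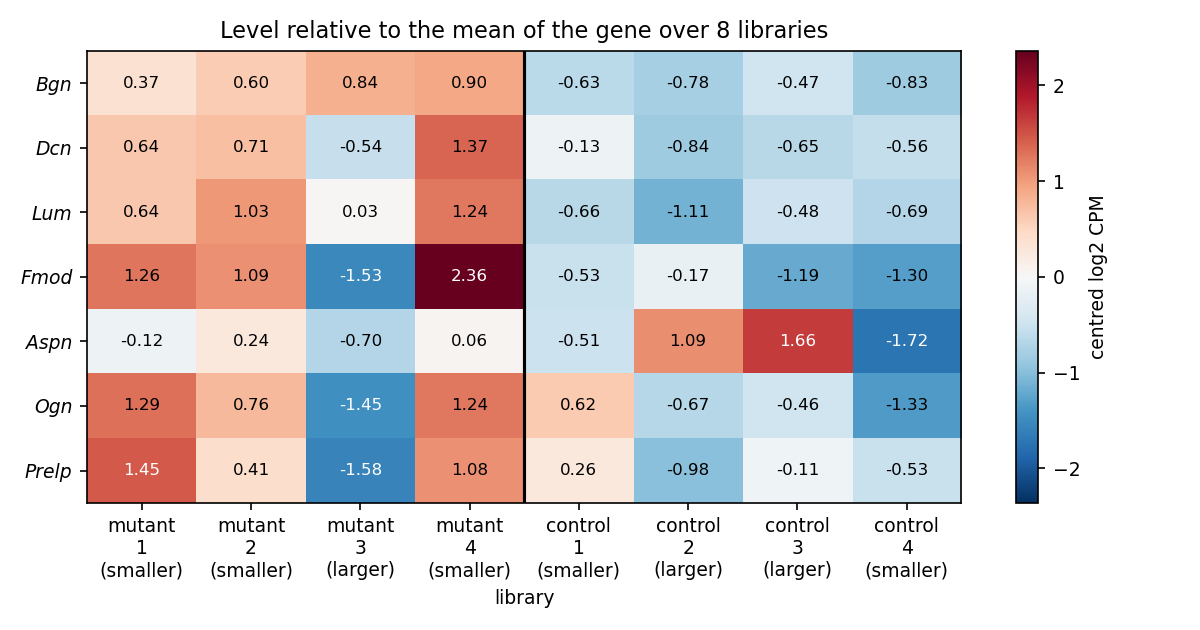
Log2 CPM of the 7 fitted genes (rows) in each library (columns, mutants left of controls) relative to the mean of that gene over the 8 libraries, in red above and blue below it. *Bgn* is above its mean in all 4 mutants and below it in all 4 controls, *Fmod*, *Ogn* and *Prelp* are lowest in mutant 3, and *Aspn* is highest in controls 2 and 3.

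The genes that work with the family were taken from lists put together by function. The lists were chosen with earlier results of these data known and tested in the contrast that chose the family. Their counts are thus no independent support for the change of the family. With an adjusted p below 0.05 required together with a change of over 2-fold, edgeR's test called 0 genes in any list and 0 of all 15233 genes tested (0%). At like thresholds the study, which corrected for batch effects, reported called genes in both directions. At an unadjusted p below 0.05, 6.40% of all genes were higher and 6.89% lower in mutants, which is 975 and 1050 genes. DESeq2 called 0.729% higher and 0.499% lower at the same thresholds as edgeR, which is 111 and 76 genes. With total counts in place of TMM, the counts at an unadjusted p below 0.05 were 1075 higher and 503 lower, and the median of all genes moved to 0.15.

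The collagens that the family binds had the highest median of the 5 lists. Of 12 collagen genes tested, 10 were higher at an unadjusted p below 0.05 and 0 were lower, 8 were called higher by DESeq2, and the median log2 fold change was 1.31. *Col1a1*, a chain of collagen I, the main fibril collagen, had 131, 182, 226 and 216 CPM in mutants 1 to 4, against 91.5, 26.6, 44.2 and 55.4 CPM in controls 1 to 4. Its groups did not overlap and its log2 fold change was 1.80 (SE 0.36, edgeR adjusted p = 0.256). *Col3a1*, the collagen III chain of soft tissue, had 85.7, 142, 181 and 146 CPM in mutants 1 to 4, against 78.2, 37.3, 71.7 and 43.8 CPM in controls 1 to 4, and a log2 fold change of 1.26 (SE 0.30, edgeR adjusted p = 0.324). *Col1a2* had 94.4, 117, 173 and 150 CPM in mutants 1 to 4, against 61.1, 29.4, 56.1 and 34.95 CPM in controls 1 to 4, with a log2 fold change of 1.56 (SE 0.28, edgeR adjusted p = 0.233). Mutant 3, lowest of the mutants for 7 of the 8 proteoglycan genes, was the highest mutant library for these 3 collagens. *Col2a1*, the cartilage collagen, was the 1 gene of the list with a lower mean, with a log2 fold change of -0.34 (SE 0.72).

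Further members of the family had a higher mean in mutants or were near the limit of detection, with *Ecm2* as the exception. Of 9 listed, 5 were tested, and at an unadjusted p below 0.05 there were 3 higher genes and 0 lower ones (1 higher by DESeq2), with a median of 1.16. *Tsku*, which encodes the secreted signalling inhibitor tsukushi, had 12.9, 11.2, 7.09 and 16.5 CPM in mutants 1 to 4, against 5.94, 3.91, 3.55 and 7.89 CPM in controls 1 to 4. Only mutant 3 lay within the range of the controls, and the log2 fold change was 1.16 (SE 0.33, edgeR adjusted p = 0.353). *Podn*, which encodes podocan, had 4.39, 5.53, 2.94 and 6.52 CPM in mutants 1 to 4, against 1.63, 1.78, 3.65 and 1.502 CPM in controls 1 to 4 (log2 fold change 1.17, SE 0.37, edgeR adjusted p = 0.353). *Ecm2* was level between the groups, with 1.27 to 3.30 CPM in mutants and 1.41 to 3.15 CPM in controls. *Optc* and *Nyx*, known from the eye, stayed below 1 CPM in every library, and *Kera*, *Epyc*, *Chad* and *Podnl1* did not pass the low count filter.

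The enzymes that build the sugar chains differed less. Of 23 tested, 20 had a higher and 3 a lower mean in mutants, with a median log2 fold change of 0.25. Of all genes tested, 50.2% had a positive log2 fold change. At an unadjusted p below 0.05, 5 were higher (*Xylt2*, *Chsy1*, *Chst3*, *Chst11* and *Chst14*) and 0 lower, and DESeq2 called 0. *Fam20b*, the kinase that primes the linker of the chain, had 257, 281, 303 and 266 CPM in mutants 1 to 4, against 243, 275, 303 and 257 CPM in controls 1 to 4, with complete overlap (log2 fold change 0.04, SE 0.11, edgeR adjusted p = 0.890). *Chst11*, the chondroitin 4-sulfotransferase, had 242, 235, 287 and 268 CPM in mutants 1 to 4, against 210.5, 186, 154 and 218 CPM in controls 1 to 4. Its groups did not overlap, at a log2 fold change of 0.43 (SE 0.14, edgeR adjusted p = 0.353). *Chpf*, a chondroitin polymerising factor, was at 78.6 to 90.0 CPM in mutants and 71.5 to 133 CPM in controls. The count of 5 was 1 without mutant 2 and 2 without mutant 1, mutant 4, control 2 or control 3.

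Of 11 tested genes for proteases that process or cleave the family, their enhancers included, 4 passed an unadjusted p of 0.05 as higher and 0 as lower (1 higher by DESeq2), with a median of 1.01. *Mmp14*, a membrane-bound metalloprotease, had 116, 88.6, 104 and 136 CPM in mutants 1 to 4, against 56.4, 18.3, 12.6 and 55.9 CPM in controls 1 to 4. The groups did not overlap and the log2 fold change was 1.63 (SE 0.47, edgeR adjusted p = 0.353). *Bmp1*, which encodes the protease that cuts the propeptide off biglycan, had 59.0, 60.4, 84.6 and 58.5 CPM in mutants 1 to 4, against 61.4, 128, 107 and 55.7 CPM in controls 1 to 4. The higher levels were those of the 3 larger libraries, and the log2 fold change was -0.42 (SE 0.28, edgeR adjusted p = 0.495). *Mmp3*, a stromelysin that cleaves decorin, was at 114, 68.8, 9.42 and 105 CPM in mutants 1 to 4, against 48.1, 1.89, 0.456 and 57.2 CPM in controls 1 to 4, and was lowest in the larger libraries of either genotype. The count of 4 was 2 without mutant 1, control 2 or control 3, and 7 within the smaller libraries.

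Among 17 tested receptors and ligands of biglycan and decorin, 4 were higher (*Lrp1*, *Tgfb1*, *Tgfb3* and *Wisp1*) and 1 lower (*Kdr*) at an unadjusted p below 0.05, 2 were called higher by DESeq2, and the median log2 fold change was 0.45. *Lrp1*, an endocytic receptor of decorin, had 325, 252, 297 and 318 CPM in mutants 1 to 4, against 189, 77.6, 157 and 180 CPM in controls 1 to 4. The groups did not overlap and the log2 fold change was 0.98 (SE 0.26, edgeR adjusted p = 0.353). *Tgfb1*, the growth factor that decorin and biglycan bind, had 33.6 to 50.2 CPM in mutants and 11.6 to 24.3 CPM in controls, with a log2 fold change of 1.10 (SE 0.26, edgeR adjusted p = 0.324). The Toll-like receptors of biglycan showed no common direction: *Tlr4* had a log2 fold change of 1.41 (SE 0.78) and *Tlr2* one of -0.34 (SE 0.45), and both groups overlapped. *Cd44*, a co-receptor, was at 137 to 274 CPM in mutants and 68.4 to 205 CPM in controls, and the Wnt co-receptor *Lrp6* at 144 to 200 CPM in mutants and 158 to 198 CPM in controls. Within the smaller libraries 8 genes of the list were higher. Without mutant 1, mutant 2, mutant 4, control 2 or control 3 none was lower.

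**Figure D5:**
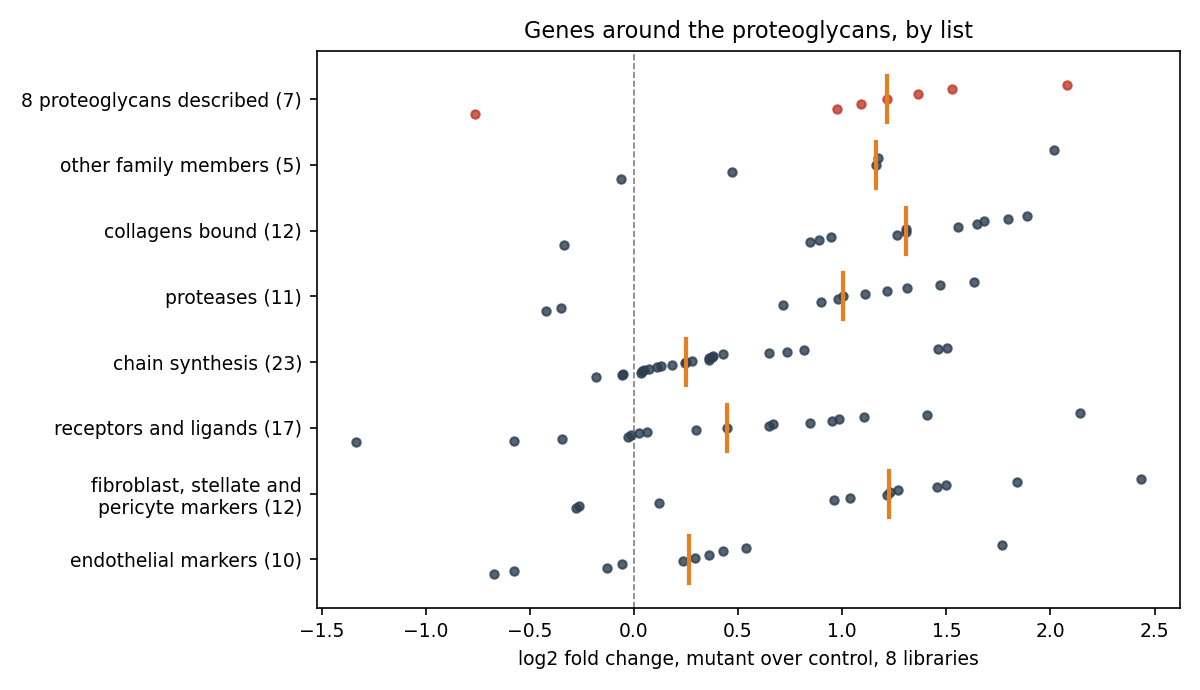
Log2 fold change, mutant over control, of each tested gene of the 8 proteoglycans (red) and of 7 lists of genes around them (dark points), with the number tested in brackets and an orange bar at the median. The medians of the proteoglycans, the collagens and the fibroblast markers lie between 1.21 and 1.31, and those of the enzymes of chain synthesis and of the endothelial markers at 0.25 and 0.27.

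Markers of the stromal cells known to make these proteoglycans had higher means alongside the family. Of 12 markers of fibroblasts, stellate cells and pericytes, all were tested, 10 had a higher mean in mutants and 7 passed an unadjusted p of 0.05 as higher and 0 as lower (1 higher by DESeq2), with a median log2 fold change of 1.22. Of all genes tested, 50.2% had a positive log2 fold change. None of the 12 markers was at 0 in any library. Their summed level was 309 to 497 CPM in mutants and 240 to 367 CPM in controls, so the sums overlapped. *Pdgfrb*, a receptor of pericytes and fibroblasts, had 54.5 to 128 CPM in mutants and 13.5 to 52.8 CPM in controls (log2 fold change 1.23, SE 0.46, edgeR adjusted p = 0.353), while the pericyte marker *Rgs5* had a log2 fold change of -0.26 (SE 0.44). Their part in the levels of the proteoglycans was not tested. Endothelial markers had a median of 0.27 and sums of 560 to 703 CPM in mutants and 576 to 672 CPM in controls. Schwann cell markers had a median of 0.84 and sums of 53.7 to 81.6 CPM in mutants and 33.2 to 53.9 CPM in controls, and leukocyte markers a median of -0.08. Ductal markers had a median of 1.02 and sums of 1083 to 3004 CPM in mutants and 309 to 1637 CPM in controls. Islet endocrine markers had a median of -0.89. Their sums were 66947, 185947, 298506 and 64823 CPM in controls 1 to 4, against 53022 to 81010 CPM in mutants, so controls 2 and 3 stood apart. Acinar markers, with the same 2 controls apart, had a median of -3.75. All 8 acinar markers tested had a lower mean in mutants, 6 of them at an unadjusted p below 0.05 by edgeR. The 2 mesothelial markers tested, of 6 listed, had a median of -0.59.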

How the data were processed

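RNA from islets of 4 mutant and 4 control libraries was measured, and groups and replicate numbers follow the sample titles. The authors used Trimmomatic and FASTP on single-end reads, STAR for alignment to mm10 and featureCounts, with its defaults, for gene counts. For differential expression they used TMM and corrected batch effects through a design matrix, without naming the batches. No versions stand in the submitters' processing notes, which list STAR, featureCounts, edgeR and the build GRCm38. The deposited raw counts of 24091 genes were used. The authors' deposited comparison table holds CPM, fold changes, p-values and FDR of their own, and it was not used, nor were its 8 CPM columns of single libraries.

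Counts were analysed in R 4.3.3 with edgeR 4.0.16 (filterByExpr, TMM, glmQLFit and glmQLFTest, genotype as the only term), and 15233 genes passed the filter. P-values were adjusted by the Benjamini-Hochberg method over all genes tested. Each SE was the absolute log2 fold change over the root of the F statistic. DESeq2 1.42.0 was an alternative. The test for larger libraries (over 50 M counts) had genotype in the model. Fitting was tested on simulated data. A chi-square per gene of at least 28.0 between any pair of libraries showed that none was deposited more than once. A total of 26 symbols read as dates and were left so.

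The 8 family genes, the lists and the tests were chosen with earlier results of these data known. Named in the text are the 8 genes, further family members that passed the filter, in each list the 3 genes of highest mean CPM, and for each family gene the 3 nearest profiles. Other list genes, such as *Col2a1*, *Tgfb1*, *Tlr4* and *Pdgfrb*, were named after their values were seen. *Ccn4* is in the table as *Wisp1*, and the mesothelial marker *Muc16* was not analysed here. Alternatives were other normalisations and filters, a replicate block, terms for library set and sex, the smaller libraries only, and leaving out each library. Libraries of 35.1 to 67.6 M counts leave little counting error for the higher genes. It is larger for *Omd*, and for *Aspn*, *Ogn* and *Fmod* in some libraries, with 22, 25 and 28 counts in control 4. Intervals and floors cover counting error only.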

Additional observations from a re-analysis of the deposited data

Results flagged for a closer look

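The ratio of *Bgn* to *Dcn* per kilobase was 3.13 in mutant 3, against 0.866 to 1.12 in the other mutants, and this library lay far from the rest by Dixon's criterion (gap of 0.889 of the range). The criterion was applied to 22 groups of 4 libraries, and chance marks about 1 in 20 groups.

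In 5 genes the mutant effect ran in opposite directions in the larger and the smaller libraries, with every library on its side. The share of all genes with this pattern was not computed, so the count is a description. The ratio of mean CPM, mutant over control, in the larger libraries was 0.505 for *Fmod*, 0.226 for *Aspn*, 0.524 for *Ogn*, 0.460 for *Prelp* and 0 for *Omd*, and in the smaller libraries it was 6.06, 2.13, 2.28, 2.19 and 2.14 for the same genes in that order. The interaction term passed for *Aspn* (edgeR adjusted p = 0.0406) and not for *Fmod*, *Ogn* or *Prelp* (edgeR adjusted p = 0.0633, 0.191 and 0.0962), and it was not tested for *Omd*, which rests on 0 counts in mutant 3 and 3 counts in each of controls 2 and 3. The larger libraries hold 1 mutant.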

How the results depend on the processing

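Of 420 values under alternative settings, 388 were counted as keeping their direction and call or staying close to their value, with exceptions named below. The log2 fold change ran over 1.29 to 1.53 for *Bgn*, 0.89 to 1.47 for *Dcn*, 1.35 to 1.71 for *Lum*, 1.45 to 2.60 for *Fmod*, 0.52 to 1.59 for *Ogn* and 0.42 to 1.31 for *Prelp*. For *Aspn* it ran from -1.11 to 1.09. The direction turned in the smaller libraries only (1.09) and with a term for library set (0.077, SE 0.74). The value with that term is counted among the 388 although its sign changed. The same holds for larger against smaller libraries in *Fmod* and *Bgn*. *Fmod* went from -0.96 to 0.16 with a term for sex and to 0.28 without mutant 3. *Bgn* went from 0.15 to -0.077 with total counts only and to -0.060 with a term for sex. Enzymes of chain synthesis that were higher at an unadjusted p below 0.05 numbered 5, against 3 with total counts only, 8 with the replicate block, 8 with a term for sex and 1 to 5 when each library was left out, and 2 were lower within the smaller libraries. Proteases that were higher numbered 4, against 8 with the replicate block, 7 within the smaller libraries and 2 to 4 when each library was left out. Receptors and ligands that were higher numbered 4, against 8 within the smaller libraries, and the 1 that was lower became 0 with total counts only and 0 to 1 when each library was left out. The larger against the smaller libraries gave -0.84 for *Dcn* and -1.22 for *Prelp* by DESeq2 and -1.10 for *Dcn* with total counts only, which passed, where 2058 of all genes passed in either direction, and 2.45 for *Aspn* without mutant 3, with a range of 0.52 to 2.45 over the libraries left out in turn. With a mean CPM of at least 1 required, 1 of the 3 genes nearest to *Lum* was kept. With coding length *Fmod* ranked 5, *Ogn* 6 and *Aspn* 7 by level, and in controls alone *Ogn* ranked 6 and *Fmod* 7. With coding length the step from *Lum* to *Prelp* did not pass (adjusted exact p = 0.0984). The cause of these changes was not tested.

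The replicate numbers were checked as a pairing: same-numbered mutant and control libraries deviated together with correlations of 0.42, -0.013, 0.46 and 0.25, and 6 of 8 libraries correlated best with their own number. This is a hint of pairing in 3 of 4 numbers, but number 2 does not share it and no label says what a number marks, so the libraries were not treated as pairs. With the replicate block the counts at an unadjusted p below 0.05 were 1559 higher and 1128 lower, and edgeR called 0. With a term for the library set it called 4 genes higher, and within the smaller libraries 7 higher and 3 lower. Over the libraries left out in turn the genes at an unadjusted p below 0.05 numbered 540 to 1308 higher and 564 to 1534 lower, lowest without mutant 4 and mutant 1, and within the smaller libraries they were 1976 and 1656. Depth limits *Omd* most, and *Aspn*, *Fmod* and *Ogn* also had few counts in some libraries.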
